A study of Saccharomyces cerevisiae S288C with 18 samples.

Results

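Amphotericin B (AMB), a polyene antifungal drug, was compared here with its matched untreated control in budding yeast, Saccharomyces cerevisiae strain S288C, across all genes measured by poly-A RNA-seq. The libraries were taken by their labels: 3 biological replicates of cultures given AMB alone at 0.03 µg/mL for 60 min, and 3 of the untreated cultures labelled as the control for AMB, which is 6 of the 18 libraries of the study. The other libraries hold AMB with lactoferrin (AMB-LF), lactoferrin alone and the controls of both. All cultures were grown in RPMI-1640, a mammalian cell culture medium that contains amino acids, and the labels give no gene deletion or other drug for either group. The harvest time was set by the study as the point at which growth was inhibited to a fixed, partial extent, so that the cells were stressed but mostly alive.

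AMB binds ergosterol, the main sterol of fungal membranes, where it can extract the sterol and form pores that leak ions. Yeast cells regulate growth and nutrient supply through a few well known circuits. Gcn4 is the activator of amino acid biosynthesis and is controlled mainly through translation of its mRNA. Gln3 and Gat1, which bind GATA sequences, switch on genes for the use of poor nitrogen sources, a system called nitrogen catabolite repression. The genes for making ribosomes carry 2 promoter elements named PAC and RRPE and are transcribed strongly in fast growth. Msn2 and Msn4 act through the stress response element (STRE), and Upc2 and Ecm22 act on the genes of ergosterol synthesis through the sterol regulatory element (SRE).

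The 3 AMB libraries held 6799569, 7709759 and 8155002 counts on genes, and the 3 control libraries 7638062, 8287153 and 7846810. Of 5456 genes that passed the filter on low counts, 37.1% were called in edgeR's quasi-likelihood test at a Benjamini-Hochberg adjusted p under 0.05, with 18.7% higher and 18.4% lower in AMB. Most changes were small: 123 of the called genes had a log2 fold change of at least 1 and 61 had one of at most -1. In 53.7% of the tested genes all 3 AMB libraries lay on 1 side of all 3 control libraries. Levels below are CPM, a gene's count scaled to its library's total and corrected by TMM factors, in the order of replicates 1, 2 and 3. A log2 fold change is AMB over control, with a standard error (SE) derived from the statistic of the same edgeR test. AMB replicates 1 and 2 and control replicate 1 were sequenced on lane 1, AMB replicate 3 and control replicates 2 and 3 on lane 2, and the lane was a term of the fit.

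The sources differ on which untreated cultures match AMB. The sample labels and the study's table of experiments give 60 min for the control for AMB and 50 min for the control for AMB-LF. The growth description given with the samples has the times the other way round, and a plot of the study exchanges the names of the 2 untreated groups. The labels were followed, and values with AMB set against the other untreated group stand beside most of the lists below; in that comparison 16.8% of tested genes were called higher and 18.5% lower. For some lists they also stand against all 6 untreated libraries together, where 12.8% were called higher and 11.3% lower. Of the 1019 genes called higher, 508 were also called higher against the other untreated group and 14 were called lower there. Of the 1005 called lower, 352 were also called lower and 59 were called higher. The comparisons share the AMB libraries, so they are not independent.

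The strain label was checked against the genes of the mating types, since S288C is distributed as a haploid of the alpha type. Per kilobase of coding sequence, STE2, the receptor of a-type cells for alpha-factor, had 697.9 to 796.4 CPM in AMB libraries and 741.7 to 809.1 in control libraries, and STE3, the receptor of alpha-type cells, had 4.2 to 4.3 and 5.3 to 6.0. MF(ALPHA)1, the main gene for alpha-factor itself, had at most 0.8 CPM per kilobase in AMB libraries and at most 1.5 in control libraries, under the filter. In both groups these 3 genes gave the pattern of a-type cells, which goes against the usual mating type of the named strain. The other genes specific to either type were less clear-cut. The alpha-specific MF(ALPHA)2 had 29.5 to 33.2 CPM per kilobase in AMB libraries and 23.8 to 26.7 in control libraries. It and SAG1 lay above the a-specific ASG7 (20.1 to 23.4 and 18.1 to 21.2), but below every other a-specific gene. Levels differed between groups: 4 of 7 a-specific genes were called lower with AMB and 0 higher. Of 4 tested alpha-specific genes 2 were called higher and 1 lower.

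The strongest increase was in arginine biosynthesis, where all 10 genes rose with a median log2 fold change of 2.13, against -0.02 over all tested genes. ARG3, ornithine carbamoyltransferase, had 115, 104 and 129.8 CPM in the AMB libraries, against 11.4, 15.6 and 9.34 CPM in the control libraries (log2 fold change 3.25 ± 0.21, edgeR adjusted p = 8.5e-07). Argininosuccinate synthetase, ARG1, had 1053, 942 and 1238 CPM in the AMB libraries, against 103, 109 and 141 CPM in the control libraries (log2 fold change 3.21 ± 0.17, edgeR adjusted p = 2.4e-07). ARG4, argininosuccinate lyase, which releases arginine, had 2765, 2909 and 2756 CPM in the AMB libraries, against 423, 406 and 571 CPM in the control libraries (log2 fold change 2.61 ± 0.14, edgeR adjusted p = 2.8e-07). For each of these 3 genes every AMB library lay far above every control library. CPA1, a subunit of the carbamoyl phosphate synthetase that feeds the pathway, also rose, with a log2 fold change of 1.92 ± 0.10. YOR302W, the short reading frame in the leader of the CPA1 mRNA whose peptide represses CPA1 translation when arginine is plentiful, rose with CPA1 (70.4, 65.04 and 64.01 CPM in the AMB libraries, against 13.9, 11.4 and 13.6 CPM in the control libraries, log2 fold change 2.33 ± 0.14). All 10 were also called higher within lane 1, where 6.58% of tested genes were called higher and 5.32% lower, and within lane 2, where 7.33% were called higher and 3.01% lower. The median was 2.85 against the other untreated group, 2.43 against all untreated libraries, 2.19 within lane 1 and 2.12 within lane 2.

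Other amino acid pathways rose to a smaller extent and not evenly. All 8 lysine genes, 11 of 14 aromatic and 6 of 7 histidine genes were called higher and none lower, with medians of 1.29, 1.08 and 1.08. LYS1, saccharopine dehydrogenase, which makes lysine in the last step, had 769.6, 848 and 919 CPM in the AMB libraries, against 190.0, 172 and 203 CPM in the control libraries (log2 fold change 2.15 ± 0.13, edgeR adjusted p = 3.7e-07). HIS4, an enzyme of several steps in the histidine pathway, had 3741, 3318 and 3406 CPM in the AMB libraries, against 874, 974 and 1139 CPM in the control libraries (log2 fold change 1.84 ± 0.14, edgeR adjusted p = 3.4e-06). The groups did not overlap for either gene. The aromatic genes were led by ARO3, one of the enzymes of the first step of the shared pathway (1.80 ± 0.12), followed by TRP4 (1.36 ± 0.07) and TRP2 (1.24 ± 0.08). In branched-chain synthesis 9 of 11 genes rose, led by the isopropylmalate synthase LEU4 (1.47 ± 0.07), while the next 2 enzymes of leucine synthesis fell: LEU1 had 99.7, 94.4 and 100.3 CPM in the AMB libraries, against 165, 179 and 160.1 CPM in the control libraries, and LEU2 a log2 fold change of -0.47 ± 0.07. Both were also called lower against the other untreated group, at -0.33 and -0.41. Aspartate kinase, HOM3, rose by 1.64 ± 0.10 and phosphoserine phosphatase, SER2, fell (-0.64 ± 0.09), the one gene called lower among 9 for serine, threonine and homoserine, of which 5 rose (6 rose and 2 fell against the other untreated group).

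Sulfur amino acid genes changed in both directions. Of 21 genes for sulfate assimilation and methionine, 6 rose and 5 fell, with a median of -0.09, and against the other untreated group 4 rose and 10 fell, with a median of -0.28. STR3 and STR2, the enzymes that move sulfur from cysteine to homocysteine, rose by 1.68 ± 0.17 and 1.13 ± 0.08. MET6, methionine synthase, and SAM1, one of the S-adenosylmethionine synthetases, fell (-0.97 ± 0.14 and -1.06 ± 0.12). Of the charging enzymes for tRNA 4 of 18 were called higher, with a median of 0.07. With the other untreated group as control 16 of them were called higher, with a median of 0.55.

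**Figure D1:**
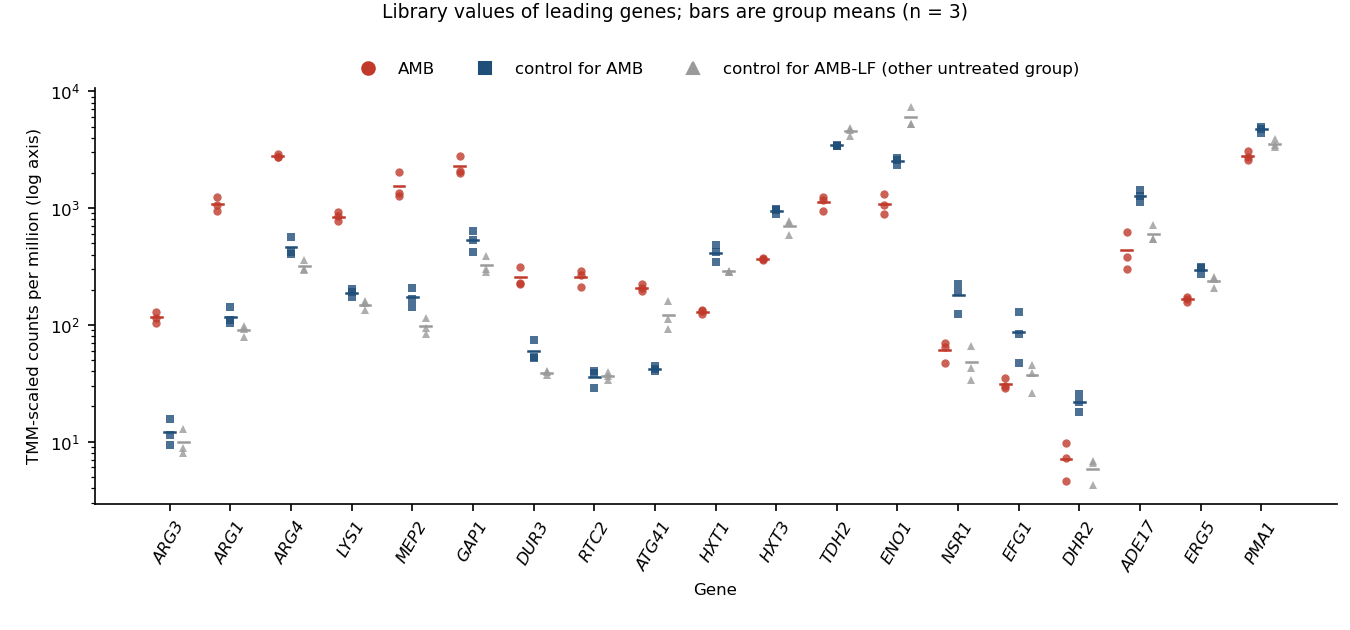
Levels of 19 leading genes in each library of AMB, the control for AMB and the other untreated group (control for AMB-LF), in TMM-scaled CPM on a log axis, with 1 point per library and a bar at each group mean (n = 3). For every gene shown the 3 AMB libraries lie on 1 side of the 3 libraries of the control for AMB, and ARG3 sits between 104 and 129.8 CPM with AMB, against 9.34 to 15.6 CPM in the control for AMB.

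The core Gcn4 recognition sequence TGACTC was searched on both strands in the 300 bases before each start codon. It was present in 9 of 10 arginine promoters and 6 of 7 histidine promoters, against 7.76% of all 6007 promoters, and ARG3, the gene with the largest increase, was the arginine gene without it. In 2 of the 9 arginine promoters the match lay too near the edge for a whole window of 30 bases. Matches were in 7 of 11 branched-chain promoters and 7 of 9 for serine, threonine and homoserine. They were in only 3 of 8 lysine and 5 of 14 aromatic promoters, and ARO3 had none. The motif was also in 9 of 14 purine and 9 of 13 one-carbon promoters, lists in which most genes fell against the labelled control. Windows around it are shown for 5 genes named in the results, read on the strand that gives the motif and with the motif in capitals, from the R64 genome of RefSeq; the ARG1 and LYS1 windows are on the strand opposite to the gene.
ARG1, chrXV:218925-218954: cctgcctttaaaTGACTCttccatacggca
ARG4, chrVIII:141564-141593: ttagtagatgaaTGACTCactttttggata
HIS4, chrIII:68515-68544: acccatgcacagTGACTCacgtttttttat
LYS1, chrIX:420968-420997: aagagtctttttTGACTCatcgacttagta
RTC2, chrII:536341-536370: gccttgcagcaaTGACTCaaattccattgg
Of 436 tested genes with such a match 35.6% were called higher and 12.4% lower, and of 4970 without one 17.3% and 19.1%. A match is a description of letters and was not tested as a binding site.

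The GCN4 mRNA itself did not pass the test. It had 1585, 1477 and 1506 CPM in the AMB libraries, against 1343, 1381 and 1292 CPM in the control libraries (log2 fold change 0.18 ± 0.11, edgeR adjusted p = 0.22), and the 3 AMB libraries lay just above the controls. With the other untreated group as control it was at 0.84 (edgeR adjusted p = 1.6e-04). Activators of single pathways did rise, among them UGA3, which acts on the genes for use of gamma-aminobutyrate, and LYS14, which acts on lysine genes. UGA3 had 261, 240.0 and 274 CPM in the AMB libraries, against 60.9, 59.95 and 72.1 CPM in the control libraries (log2 fold change 2.03 ± 0.08, edgeR adjusted p = 3.0e-08), and LYS14 a log2 fold change of 0.98 ± 0.08. Of 23 tested transcription factors of amino acid and nitrogen genes, 12 rose and none fell.

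Genes for taking up and using poor nitrogen sources rose next. Of 26 genes under nitrogen catabolite repression, 19 were called higher and none lower, with a median log2 fold change of 0.62 (1.11 against the other untreated group). MEP2, the high-affinity ammonium permease, had 1275, 1339 and 2019 CPM in the AMB libraries, against 165, 142 and 207 CPM in the control libraries (log2 fold change 3.16 ± 0.30, edgeR adjusted p = 1.4e-05). GAP1, the general amino acid permease, had 1989, 2095 and 2774 CPM in the AMB libraries, against 533, 424 and 640.1 CPM in the control libraries (log2 fold change 2.09 ± 0.23, edgeR adjusted p = 5.0e-05). DUR3, the transporter of urea and polyamines, had 229, 226 and 311 CPM in the AMB libraries, against 52.6, 51.6 and 73.8 CPM in the control libraries (log2 fold change 2.10 ± 0.21, edgeR adjusted p = 2.7e-05). In each of the 3 genes AMB replicate 3, the one AMB library on lane 2, was the highest, and no AMB library overlapped the controls. Glutamine synthetase, GLN1, which assimilates ammonium, rose by 1.76 ± 0.23.

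Plasma membrane permeases for amino acids did not move as 1 group. Of 20 permeases 11 rose and 3 fell, and 13 rose and 5 fell against the other untreated group. GAP1, the proline permease PUT4 (1.97 ± 0.18) and the acidic amino acid permease DIP5 (1.77 ± 0.18) led the increases. MMP1 and SAM3, permeases for S-methylmethionine and S-adenosylmethionine, were lower (-0.70 ± 0.08 and -0.56 ± 0.14), as was TAT1 (-0.41 ± 0.09), which carries tyrosine among others. RTC2, a vacuolar membrane protein of a family that carries cationic amino acids, had 210.0, 289 and 269 CPM in the AMB libraries, against 38.8, 28.8 and 40.1 CPM in the control libraries (log2 fold change 2.81 ± 0.15, edgeR adjusted p = 2.1e-07), far more than any other of 16 vacuolar amino acid transporters, of which ERS1 was next at 0.44 ± 0.09. YSW1, the coding sequence that follows RTC2 on the same strand of chromosome II and is known from spore formation, had 47.5, 48.95 and 49.9 CPM in the AMB libraries, against 10.2, 10.7 and 11.6 CPM in the control libraries (log2 fold change 2.15 ± 0.15).

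The GATA factors that act on these genes rose as well. GAT1 had 269.7, 248 and 278 CPM in the AMB libraries, against 81.6, 74.97 and 94.8 CPM in the control libraries (log2 fold change 1.64 ± 0.13, edgeR adjusted p = 3.5e-06), and GLN3 a log2 fold change of 0.92 ± 0.05. DAL80, a GATA repressor that is itself under nitrogen catabolite repression, was too low for the filter, at 5.88, 6.44 and 8.75 CPM with AMB and 1.86, 1.12 and 0.649 CPM in the control. With no filter its log2 fold change was 2.43 ± 0.44 (edgeR adjusted p = 0.0016). The letters GATAAG, searched on both strands in the same windows, were in 14.7% of all promoters and in 21.4% of those of genes called higher. They were in 11 of 26 promoters of nitrogen catabolite repression genes, but not in those of DUR3, PUT4 or GLN1. Of 16 vacuolar amino acid transporter promoters 9 held them. Windows are shown for the ammonium and general amino acid permeases, the MEP2 window being on the strand opposite to the gene.
MEP2, chrXIV:357208-357237: gaatacttcattGATAAGgcacagggtctt
GAP1, chrXI:514809-514838: taaattaaacatGATAAGcgcatagttggg
Of the 793 tested genes with a match, 27.4% were called higher and 14.6% lower, and of 4613 without one 17.3% and 19.2%.

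The broadest decrease was in ribosome production. Of 147 tested ribosome biogenesis factors 141 were called lower and none higher, with a median log2 fold change of -0.76. NSR1, the yeast nucleolin, had 64.2, 47.3 and 69.6 CPM in the AMB libraries, against 224, 191 and 125 CPM in the control libraries (log2 fold change -1.60 ± 0.25, edgeR adjusted p = 7.5e-04). EFG1, a factor of pre-rRNA processing, had 28.8, 30.04 and 34.9 CPM in the AMB libraries, against 128, 82.8 and 47.4 CPM in the control libraries (log2 fold change -1.55 ± 0.30, edgeR adjusted p = 0.0023). DHR2, a nucleolar helicase, had 7.24, 4.56 and 9.63 CPM in the AMB libraries, against 21.7, 25.7 and 17.9 CPM in the control libraries (log2 fold change -1.52 ± 0.24, edgeR adjusted p = 6.5e-04). The AMB libraries were all below the controls, and control replicate 3 was the lowest control for each of the 3 genes. The median level of the list relative to the mean of the control libraries, in log2, was -0.74, -1.03 and -0.58 in the AMB libraries and 0.06, 0.19 and -0.24 in the control libraries.

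This decrease depended on which untreated libraries stood as the control. The same list was at -1.11, -1.47 and -0.89 in the 3 libraries of the other untreated group, of which 2 lay below every AMB library and the third between AMB replicates 1 and 2. Against that group 21 of 147 ribosome biogenesis genes were called higher with AMB and none lower (median 0.31). That share of increases is below the 16.8% of all tested genes called higher there, where 18.5% were called lower. Against all 6 untreated libraries none of the ribosome biogenesis genes was called (median -0.32), where 12.8% of tested genes were called higher and 11.3% lower. Control replicate 1 is the only lane 1 library of the control for AMB. A fit without it leaves that control on lane 2 alone. In that fit 10.2% of tested genes were called higher and 7.72% lower, and 58 ribosome biogenesis genes were called lower. The median was -0.96 within lane 1 and -0.55 within lane 2. The 2 untreated groups differ in labelled incubation time, and all 3 libraries of the other one were sequenced on lane 1; the part of either in this result was not tested.

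**Figure D2:**
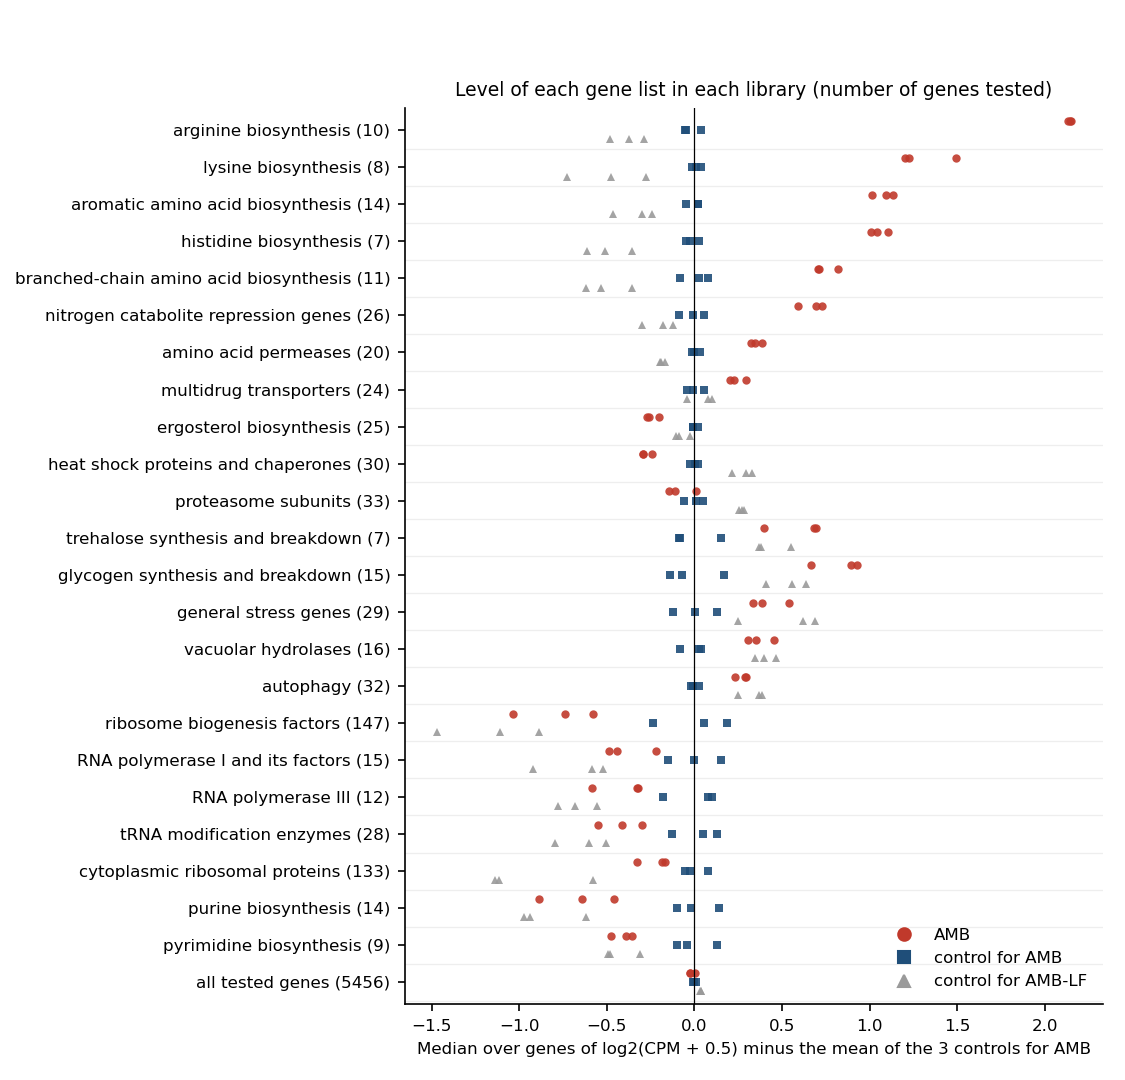
Median level of 23 gene lists and of all tested genes in each library, as log2(CPM + 0.5) minus the mean of the 3 libraries of the control for AMB, with 1 point per library of AMB, the control for AMB and the other untreated group (control for AMB-LF). Arginine biosynthesis lies above 2.1 in all AMB libraries and below 0.1 in all untreated ones, while ribosome biogenesis in AMB libraries lies below every library of the control for AMB and near or above those of the other untreated group.

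The machinery around the ribosome went the same way with the labelled control. RNA polymerase I and its factors fell in 9 of 15 genes, led by the largest subunit RPA190 (127, 79.2 and 105 CPM in the AMB libraries, against 165, 237 and 161 CPM in the control libraries, log2 fold change -0.83 ± 0.24), and RNA polymerase III in 10 of 12, led by RPC17 (-0.85 ± 0.21). Among tRNA modification enzymes 23 of 28 fell, led by TRM11 (-1.01 ± 0.19), and among translation factors 19 of 38, led by the elongation factor YEF3 (-0.76 ± 0.20). Among cytoplasmic ribosomal proteins 2 of 133 genes were called higher and 9 lower, but 129 had a negative log2 fold change, with a median of -0.21, and in 95 every AMB library lay below every control library, as in 1498 of all tested genes. Against the other untreated group 125 of the ribosomal protein genes were called higher (median 0.68), and the medians of polymerase I, polymerase III, tRNA modification and translation factors were 0.36, 0.29, 0.15 and 0.21. Of the 53 mitochondrial ribosomal proteins 3 rose and 3 fell (median -0.04), and 1 rose and 15 fell against the other untreated group (median -0.16).

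The regulators of ribosome genes gave small or mixed values. TOD6, a repressor that binds the PAC element, had 20.4, 11.8 and 23.5 CPM in the AMB libraries, against 43.6, 48.8 and 24.3 CPM in the control libraries (log2 fold change -1.08 ± 0.28, edgeR adjusted p = 0.012) and its relative DOT6 fell by less (-0.41 ± 0.08). IFH1, the coactivator of ribosomal protein genes, was lower (-0.46 ± 0.14). SFP1 (0.13 ± 0.07), STB3 (0.12 ± 0.08) and the polymerase I factor RRN3 (-0.03 ± 0.10) did not pass the test, with edgeR adjusted p-values of 0.13, 0.25 and 0.85.

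PAC (letters GATGAG) and RRPE (AAAAATTTT) were in 19.1% and 7.34% of all promoters, searched on both strands in the 300 bases before the start codon, and in 129 and 96 of the 147 ribosome biogenesis promoters. In 60 of these a PAC and an RRPE match lay together inside 1 stretch of at most 30 bases. Such windows are printed for 4 genes, each read along the strand of its gene with both elements in capitals; PAC on the other strand reads CTCATC, and the EFG1 window holds it 2 times, overlapping by 1 base.
EFG1, chrVII:1038578-1038607: caaAAAAATTTTcataCTCATCTCATCtct
ROK1, chrVII:182267-182296: tcgtgAAAAATTTTTtgcGATGAGatggga
RRP8, chrIV:611969-611997: ggcctgAAAAATTTTgcGATGAGctcaaa
NSA2, chrV:414302-414331: atgAAAAATTTTccggacagcGATGAGatg
ROK1 is an RNA helicase, RRP8 an rRNA methyltransferase and NSA2 a factor of the large subunit, and their log2 fold changes were -1.05 ± 0.18, -1.07 ± 0.18 and -1.06 ± 0.20. The NSA2 window also lies before LCP5, a factor of the small subunit that is transcribed away from NSA2 (-0.55 ± 0.20). Of the 215 tested genes with both motifs anywhere in the 300 bases 73.5% were called lower and 2.79% higher. Their median log2 fold change was -0.57 against the labelled control and 0.28 against the other untreated group.

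**Figure D3:**
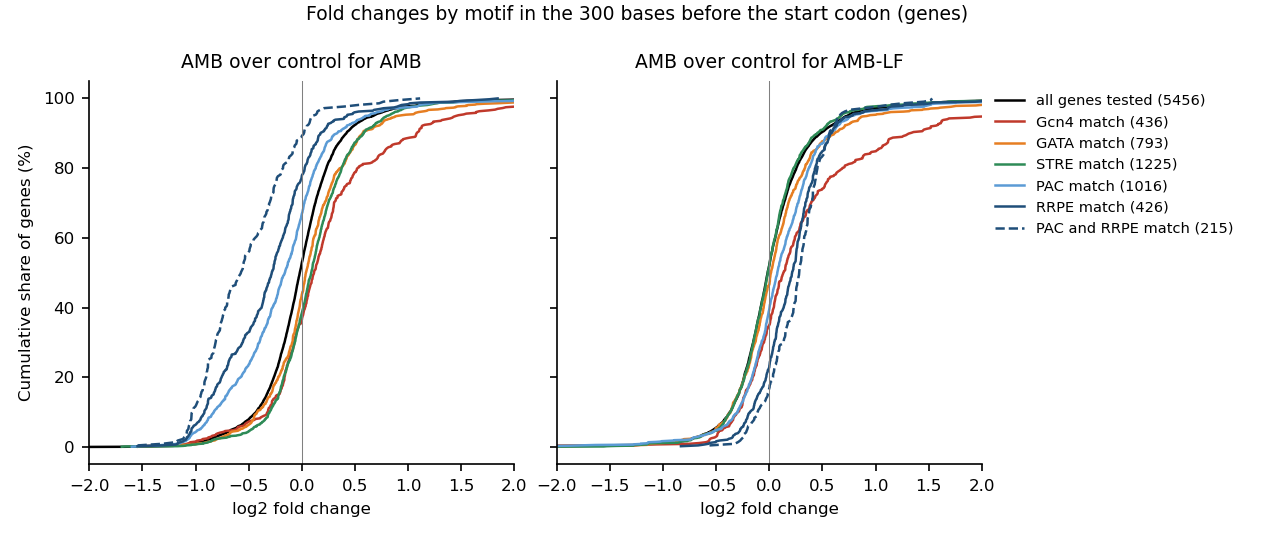
Cumulative share of tested genes (vertical axis, %) up to each log2 fold change (horizontal axis), for all genes and for genes with each promoter motif, for AMB over the control for AMB on the left and over the control for AMB-LF on the right. Genes with both PAC and RRPE lie furthest to the left in the first panel, with a median of -0.57, and to the right of all genes in the second, with a median of 0.28.

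Nucleotide synthesis was lower. Of 14 purine genes 10 fell and 2 rose. ADE17, the enzyme of the last steps to inosine monophosphate, had 622, 303 and 379.5 CPM in the AMB libraries, against 1121, 1443 and 1261 CPM in the control libraries (log2 fold change -1.54 ± 0.27, edgeR adjusted p = 0.0014), while its isozyme ADE16 rose slightly (0.24 ± 0.07). SHM2, the cytosolic serine hydroxymethyltransferase that supplies one-carbon units, had 479, 258 and 299 CPM in the AMB libraries, against 769, 1059 and 804 CPM in the control libraries (log2 fold change -1.31 ± 0.24, edgeR adjusted p = 0.0021). AMB replicate 1 was the highest AMB library for ADE17 and SHM2 and still lay below every control. One-carbon genes fell in 8 of 13, and pyrimidine genes in 7 of 9, led by the CTP synthase URA7 (-1.17 ± 0.22) and dihydroorotate dehydrogenase, URA1 (-1.14 ± 0.17). Adenine deaminase, AAH1, fell as well (-1.35 ± 0.22). Against the other untreated group the medians of the purine, one-carbon and pyrimidine lists were 0.11, 0.16 and -0.13, and URA7 and AAH1 were at 0.43 and 0.38.

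Ergosterol synthesis, which makes the sterol that AMB binds, was lower by unequal amounts. Of 25 genes 14 fell and 1 rose, with a median of -0.24, and the counts and medians moved little with the control, although some of the genes in them did: 13 fell against the other untreated group (median -0.22) and 11 against all untreated libraries (median -0.21). The late steps led. ERG5, the C-22 sterol desaturase, had 158, 172 and 167 CPM in the AMB libraries, against 313, 305 and 270.4 CPM in the control libraries (log2 fold change -0.84 ± 0.09, edgeR adjusted p = 4.7e-05). ERG11, lanosterol demethylase and the target of azole drugs, had 610.0, 606 and 659.7 CPM in the AMB libraries, against 947, 1025 and 882 CPM in the control libraries (log2 fold change -0.60 ± 0.09, edgeR adjusted p = 4.2e-04). ERG3, the C-5 sterol desaturase, had 598, 615 and 609.9 CPM in the AMB libraries, against 877, 931 and 784 CPM in the control libraries (log2 fold change -0.52 ± 0.10, edgeR adjusted p = 0.0017). The groups did not overlap for any of the 3. Smaller decreases were found in ERG6 (-0.45 ± 0.09), ERG1 (-0.29 ± 0.07), ERG2 (-0.29 ± 0.07) and ERG25 (-0.28 ± 0.09). HMG2, one of the HMG-CoA reductases at the entry to the pathway, was the gene that rose (0.40 ± 0.07), and its isozyme HMG1 did not pass the test (-0.07 ± 0.08). Against the other untreated group ERG5 and ERG3 were at -0.51 and -0.22, but ERG11 and ERG1 at -0.07 and -0.08 (edgeR adjusted p = 0.57 and 0.41). Without control replicate 1 8 genes were called lower.

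**Figure D4:**
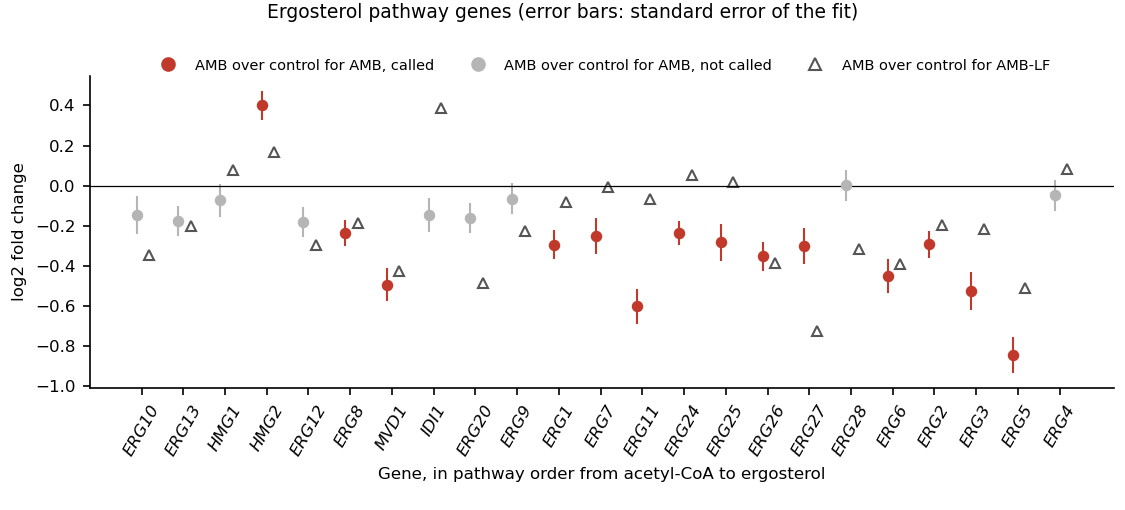
Log2 fold changes of 23 ergosterol genes in the order of the pathway, AMB over the control for AMB as filled points with SE bars and AMB over the control for AMB-LF as open triangles. ERG5 is lowest at -0.84 and HMG2 is the gene called higher at 0.40, and the triangles of ERG11 and ERG1 lie near 0.

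The sterol regulators differed. ECM22 rose (86.99, 80.1 and 75.9 CPM in the AMB libraries, against 53.1, 53.9 and 53.1 CPM in the control libraries, log2 fold change 0.59 ± 0.08) and UPC2 did not pass the test (-0.15 ± 0.12, edgeR adjusted p = 0.33). SUT1, a factor linked to sterol uptake, rose by 1.11 ± 0.07. Of 12 genes for sterol esters and uptake 4 rose, led by the cell wall mannoproteins TIR3 (0.79 ± 0.10) and TIR2 (0.57 ± 0.13), which are known for their increase in cold and without oxygen. Of them 1 was called higher without control replicate 1 and 2 with library sizes alone, and against the other untreated group 3 were higher and 2 lower. The SRE letters TCGTATA were in 4.61% of all promoters and in 5 of 25 ergosterol promoters. Tested genes with a match were called higher in 21.2% and lower in 17.4% of cases, close to the 18.6% and 18.6% of those without one.

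Other membrane lipids gave mixed values. Of the 28 sphingolipid genes 6 rose and 8 fell, among them the ceramidase YPC1 (0.57 ± 0.12) above and ORM2 (-0.63 ± 0.11), a brake on the first step, below the control. With the other untreated group as control 7 rose and 3 fell. OPI3, a methyltransferase of phosphatidylcholine synthesis, had 107, 122 and 105 CPM in the AMB libraries, against 223, 198 and 205 CPM in the control libraries (log2 fold change -0.93 ± 0.16, edgeR adjusted p = 0.0014). INO1, inositol-phosphate synthase, rose by 0.89 ± 0.19. Eisosome genes, which shape furrows of the plasma membrane, rose in 5 of 12, led by LSP1 (0.69 ± 0.11), NCE102 (0.60 ± 0.11) and PIL1 (0.56 ± 0.10), with a list median of 0.22 and of -0.00 against the other untreated group.

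Among transporters of drugs and ions a few genes changed strongly. QDR3, a transporter of drugs and polyamines, had 419, 420.1 and 498 CPM in the AMB libraries, against 149.5, 145 and 155 CPM in the control libraries (log2 fold change 1.55 ± 0.13, edgeR adjusted p = 7.2e-06). TPO1, also a polyamine exporter, rose by 1.13 ± 0.15 and the ABC transporter SNQ2 by 1.07 ± 0.12. PDR5, the ABC transporter best known for azole resistance, did not pass the test (0.21 ± 0.14). In all 11 of 24 multidrug genes rose and 2 fell, and the numbers were 11 and 2 against the other untreated group. PMA1, the proton pump of the plasma membrane, had 3091, 2599 and 2728 CPM in the AMB libraries, against 4365, 4998 and 4802 CPM in the control libraries (log2 fold change -0.74 ± 0.12, edgeR adjusted p = 9.4e-04). ENA1, a sodium pump, had 723, 771 and 705 CPM in the AMB libraries, against 211, 251 and 310.4 CPM in the control libraries (log2 fold change 1.55 ± 0.12, edgeR adjusted p = 3.3e-06). Of the 100-base windows of ENA1 85.2% are also found in ENA2 or ENA5, so its counts are uncertain. TRK1, the potassium importer, was lower (-0.48 ± 0.08).

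Of 34 cell wall genes 5 rose and 7 fell, near the 18.7% and 18.4% over all tested genes, and 6 rose and 6 fell against the other untreated group. GSC2, a glucan synthase subunit known for its increase in wall stress, had 200.5, 151 and 148 CPM in the AMB libraries, against 352, 397 and 351 CPM in the control libraries (log2 fold change -1.18 ± 0.14, edgeR adjusted p = 8.2e-05). SCW10, a wall glucanase-like protein, and CWP2, a mannoprotein, fell (-1.01 ± 0.08 and -0.65 ± 0.10), while CWP1 rose (0.62 ± 0.16). Of 20 genes of the cell wall integrity pathway 5 rose and none fell, led by the sensor MTL1 (0.73 ± 0.16), and 6 rose against the other untreated group. Calcium and calcineurin genes rose in 6 of 16 cases, CMK2 most (0.51 ± 0.09), but in 0 against the other untreated group, where 4 fell.

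Glucose transporters and sensors changed in both directions, with 5 of 17 called higher and 6 lower, and 2 and 8 against the other untreated group. HXT1, a low-affinity glucose transporter made in high glucose, had 133, 132 and 125 CPM in the AMB libraries, against 425, 478 and 343 CPM in the control libraries (log2 fold change -1.69 ± 0.10, edgeR adjusted p = 6.2e-07), the largest decrease of all called genes whose groups did not overlap. HXT3, of similar affinity, had 364, 359 and 375 CPM in the AMB libraries, against 976, 966 and 884 CPM in the control libraries (log2 fold change -1.37 ± 0.11, edgeR adjusted p = 3.4e-06). HXT7, of high affinity, rose (1.29 ± 0.11), although 94.9% of its 100-base windows are shared with HXT6 or HXT3. In glycolysis 5 of 26 genes rose and 5 fell, near the shares over all tested genes, and 4 rose and 11 fell against the other untreated group. TDH2, a glyceraldehyde-3-phosphate dehydrogenase, had 1172, 1248 and 949.7 CPM in the AMB libraries, against 3410, 3434 and 3504 CPM in the control libraries (log2 fold change -1.63 ± 0.19, edgeR adjusted p = 7.5e-05). ENO1, an enolase, was lower (-1.21 ± 0.21), and the glucose kinases GLK1 and HXK1 rose (0.87 ± 0.14 and 0.67 ± 0.16). ADH5, an alcohol dehydrogenase, had 382, 414 and 382 CPM in the AMB libraries, against 111, 102 and 119 CPM in the control libraries (log2 fold change 1.82 ± 0.09, edgeR adjusted p = 2.0e-07). Enzymes for acetate and gluconeogenesis rose in 9 of 23 (6 higher and 3 lower against the other untreated group), led by the mitochondrial aldehyde dehydrogenase ALD5 (1.45 ± 0.12) and PCK1 (1.39 ± 0.22). In the tricarboxylic acid cycle and its supply the pyruvate carboxylase PYC2 rose by 1.21 ± 0.11.

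Storage carbohydrate genes rose against the labelled control. All 7 trehalose genes and 13 of 15 glycogen genes were called higher, with medians of 0.60 and 0.84. TSL1, a subunit of the trehalose synthase complex, had 1546, 1579 and 1304 CPM in the AMB libraries, against 708, 662 and 884 CPM in the control libraries (log2 fold change 0.97 ± 0.13, edgeR adjusted p = 2.2e-04). GSY2, a glycogen synthase, had 588, 636 and 483 CPM in the AMB libraries, against 278, 265 and 344 CPM in the control libraries (log2 fold change 0.94 ± 0.15, edgeR adjusted p = 8.7e-04). The catalytic trehalose subunit TPS1 rose by 0.67 ± 0.11. Control replicate 3 was the highest control library for TSL1 and GSY2. Against the other untreated group 1 trehalose gene and 2 glycogen genes were called higher (medians 0.13 and 0.09), and TPS1 was at 0.11.

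General stress genes and chaperones went apart. Of 29 genes of the Msn2 and Msn4 type 15 rose and 3 fell. TMA10 and DDR2, common markers of this response, rose by 1.31 ± 0.16 and 1.24 ± 0.14, and NQM1, a transaldolase isozyme, fell (-1.17 ± 0.23). The STRE letters AGGGG were in 22.2% of all promoters and 35.8% of those of genes called higher. Tested genes with a match had a median log2 fold change of 0.089 against the labelled control, and those without one -0.046. Against the other untreated group the medians were -0.014 and -0.017. Of 30 heat shock proteins and chaperones 16 fell and 4 rose. SSA4, a stress-induced Hsp70, had 92.9, 93.9 and 105 CPM in the AMB libraries, against 197, 160.5 and 166 CPM in the control libraries (log2 fold change -0.86 ± 0.11, edgeR adjusted p = 1.4e-04). YDJ1, its J-domain partner (-0.82 ± 0.09) and the nucleotide exchange factor SSE1 (-0.76 ± 0.10) also fell. HSP78, a mitochondrial disaggregase, had 788, 832 and 719 CPM in the AMB libraries, against 351, 345 and 402 CPM in the control libraries (log2 fold change 1.09 ± 0.10, edgeR adjusted p = 1.5e-05). The general stress list had a median of 0.44 here and of -0.14 against the other untreated group, whereas the chaperone list was lower in both (-0.27 and -0.51).

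Autophagy and vacuolar hydrolase genes rose against the labelled control. Of 32 autophagy genes 16 rose and 1 fell, and of 16 vacuolar hydrolases 12 rose. ATG41, needed for autophagosome formation, had 194, 222 and 205 CPM in the AMB libraries, against 39.9, 44.4 and 42.2 CPM in the control libraries (log2 fold change 2.33 ± 0.18, edgeR adjusted p = 3.2e-06). The autophagy kinase ATG1 rose by 1.30 ± 0.13, the ubiquitin-like ATG8 by 0.46 ± 0.10 and aminopeptidase I, APE1, by 0.84 ± 0.11. Of 33 proteasome subunits 3 fell, and of 26 genes of folding in the endoplasmic reticulum 2. Against the other untreated group 27 and 19 of these fell, while the autophagy and hydrolase medians were -0.02 and -0.01, against 0.27 and 0.38 with the labelled control.

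Several cyclin, histone and mating genes were lower than in the labelled control. Cyclins and their inhibitors fell in 7 of 16 genes and rose in 2, with the largest decrease in the G1 cyclin CLN2 (88.95, 78.7 and 95.01 CPM in the AMB libraries, against 129, 148 and 130.5 CPM in the control libraries, log2 fold change -0.59 ± 0.11). WHI5, a brake on the start of the cell cycle, and SIC1, a cyclin-dependent kinase inhibitor, were the 2 that rose (0.30 ± 0.10 and 0.19 ± 0.06), but neither was called without control replicate 1, with library sizes alone, with a replicate block or against the other untreated group. Histone genes fell in 5 of 11. The medians of the cyclin and histone lists were -0.23 and -0.16 here, and -0.19 and -0.27 against the other untreated group. The a-factor gene MFA1 had 294, 232 and 294 CPM in the AMB libraries, against 488, 516 and 499 CPM in the control libraries (log2 fold change -0.87 ± 0.13), BAR1, the protease for alpha-factor, fell (-0.73 ± 0.09), and of 20 pheromone response genes 10 fell and 2 rose (median -0.21). With the other untreated group 2 of these fell and 3 rose (median 0.03), and the median of 7 a-specific genes was -0.00, against -0.46 with the labelled control. RNR3, a ribonucleotide reductase subunit known for its increase in DNA damage, rose by 1.23 ± 0.15.

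Lists differed in how far they depended on the control. The medians of arginine, lysine, histidine, aromatic and branched-chain synthesis, of nitrogen catabolite repression genes, of ergosterol synthesis and of chaperones had the same sign against either untreated group. Those of ribosome biogenesis, both polymerases, cytoplasmic ribosomal proteins, translation factors, tRNA modification, purine and one-carbon synthesis and general stress genes changed sign. Those of autophagy, vacuolar hydrolases and pheromone response also changed sign, to values close to 0, and those of trehalose and glycogen kept their sign and came closer to 0. Without control replicate 1, 10.2% of tested genes were called higher and 7.72% lower. The decreases then numbered 8 of 30 chaperones, 8 of 28 tRNA modification enzymes and 4 of 38 translation factors. They numbered 2 of 12 polymerase III genes, 1 of 15 polymerase I genes and 4 of 13 one-carbon genes. They also numbered 3 of 11 histones, 3 of 26 glycolysis genes and 6 of 20 pheromone response genes. They then numbered 0 cytoplasmic and 0 mitochondrial ribosomal proteins and 0 general stress genes by edgeR's adjusted p, with 2, 1 and 1 at an unadjusted p under 0.05. The increases then numbered 1 of 18 tRNA charging enzymes, 2 of 28 sphingolipid, 1 of 16 calcium and 2 of 34 cell wall genes, all below 10.2%. In cell wall integrity, glycolysis and glucose transport they numbered 3 of 20, 3 of 26 and 2 of 17. They numbered 4 of 7 trehalose, 9 of 15 glycogen, 10 of 32 autophagy, 7 of 16 vacuolar hydrolase and 6 of 24 multidrug genes. All 10 arginine and all 8 lysine genes and 15 of 26 nitrogen catabolite repression genes were still called higher, and 9 of 14 purine genes lower. Among regulators of carbon and stress genes, the largest increases were in USV1 (267, 267 and 213 CPM in the AMB libraries, against 82.5, 84.5 and 107 CPM in the control libraries, log2 fold change 1.43 ± 0.15) and SIP4 (1.40 ± 0.12), and MSN2, HAC1, RPN4 and HAP4 did not pass the test. MSN4 (0.41 ± 0.10), HSF1 (0.32 ± 0.09), PDR3 (0.37 ± 0.12) and CRZ1 (0.22 ± 0.07) rose by less.

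**Figure D5:**
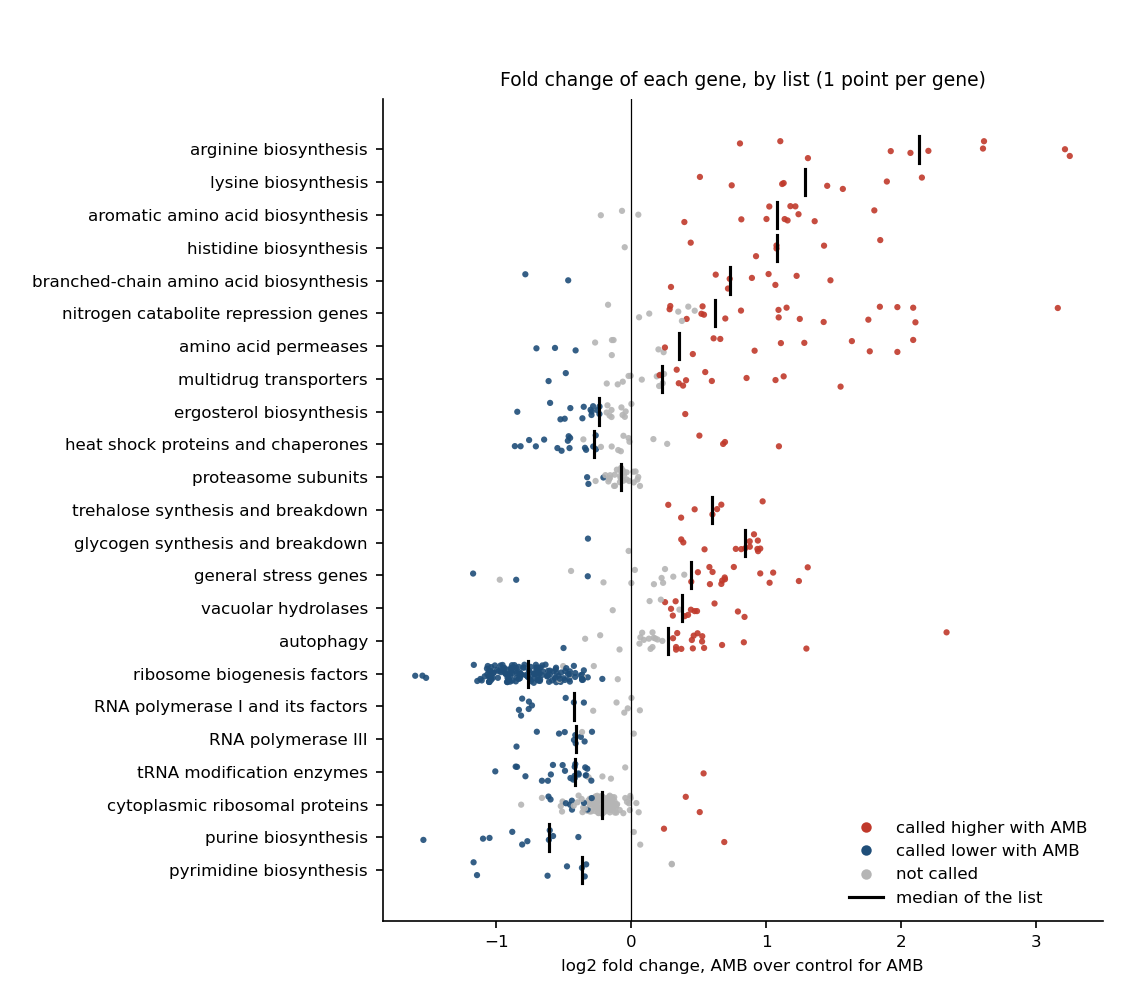
Log2 fold change of each gene, AMB over the control for AMB, by list, with 1 point per gene, coloured by whether it was called higher, called lower or not called, and a bar at the median of the list. Arginine biosynthesis has the highest median (2.13), and nearly all ribosome biogenesis genes lie below 0 (median -0.76).

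Outside the lists were 3962 tested genes, of which 679 were called higher and 612 lower. TMT1, trans-aconitate methyltransferase, and ARO5 (YGL117W), of no role given here, were among the 15 largest increases of all genes. TMT1 had 437, 541 and 459 CPM in the AMB libraries, against 84.8, 85.02 and 107 CPM in the control libraries (log2 fold change 2.41 ± 0.12, edgeR adjusted p = 2.0e-07), and ARO5 338, 361 and 343 CPM in the AMB libraries, against 63.1, 56.7 and 69.3 CPM in the control libraries (log2 fold change 2.46 ± 0.09, edgeR adjusted p = 2.4e-08). Both stood apart from the control in every library. Among the 15 largest decreases outside the lists were EFM3, a methyltransferase that acts on elongation factor 2, YRO2, a plasma membrane protein, GFD2, ATC1 and the serine hydrolase FSH1. EFM3 was low throughout, at 4.07, 3.08 and 5.12 CPM in the AMB libraries, against 13.02, 16.01 and 11.7 CPM in the control libraries (log2 fold change -1.66 ± 0.19, edgeR adjusted p = 6.6e-05), and YRO2 had 62.4, 67.3 and 80.3 CPM in the AMB libraries, against 223, 176 and 166 CPM in the control libraries (log2 fold change -1.45 ± 0.14, edgeR adjusted p = 2.2e-05). FSH1 differed little between replicates, at 56.1, 54.6 and 55.1 CPM in the AMB libraries, against 134, 132 and 122 CPM in the control libraries (log2 fold change -1.24 ± 0.07, edgeR adjusted p = 4.2e-07). BMT5, an rRNA methyltransferase (-1.36 ± 0.22), GFD2 (-1.31 ± 0.25) and ATC1 (-1.26 ± 0.23) were lower too, but against the other untreated group GFD2 was at 0.63 and ATC1 at 0.18.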

How the data were processed

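Poly-A RNA from 3 cultures per group was sequenced by the authors as paired reads on the HiSeq instrument over 2 lanes, from libraries that do not mark strand. Per the labels and methods, the authors trimmed reads with SolexaQA, aligned them with TopHat on Bowtie against the R64 genome, and used HTSeq 0.5.3p9 to count reads per coding sequence. The deposited count table holds raw counts for 6692 identifiers, of which 6008 matched the R64 gene table (the 684 others held 0.361% of HiSeq counts). Deposited group averages and the authors' tables of fold changes, p-values and false discovery rates were not used. The 6 libraries of lactoferrin alone and its control came from another instrument and were not used.

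The 12 HiSeq libraries (AMB, AMB-LF and both controls) were fitted together for the genes that reached 7 CPM in 6 or more of them, with TMM factors and group and lane terms, by the quasi-likelihood test of edgeR 4.0.16 in R 4.3.3 with Benjamini-Hochberg adjustment. The SE is that of this fit. The common biological coefficient of variation was 0.0978. The alternatives used edgeR, apart from 1 with DESeq2 1.42.0, and limma 3.58.1 was present beside edgeR but gave no test. Tables and figures used Python 3.11.15, pandas 2.3.3, numpy 2.4.6 and matplotlib 3.10.9. On simulated counts for the comparison of AMB with its control, over 5456 genes, 91% of 200 changed genes were recovered and 1.09% of calls were false. The simulation gave every gene the common coefficient of variation, with no lane effect and no difference between the untreated groups. It also changed far fewer genes than the 2024 called here, so its share of false calls does not carry over to these calls. Totals of 6799569 to 8287153 counts limit the precision of low genes, and p-values measure the spread between 3 cultures per group.

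The members of the 64 gene lists (1531 genes) and the genes named were chosen with earlier results of these data known. Named were the 15 largest increases and decreases among called genes with no overlap between groups, up to 3 called genes per direction in each list, and fixed regulators and enzymes. Some genes that this rule names are not reported here. Ribosomal proteins were matched by name pattern. Lists are described by counts and medians, with no set test. ROK1, RRP8, NSA2, LCP5 and CPA1, among others, were named after their values were seen. Sharing between coding sequences was checked in windows of 100 bases, the read length. Promoter letters came from RefSeq's R64 genome.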

Additional observations from a re-analysis of the deposited data

How the results depend on the processing

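The 1019 genes called higher and 1005 called lower with AMB were within 1.5 times of those numbers with RLE factors, with library sizes alone, without a filter or with filterByExpr, with DESeq2 or the likelihood ratio test, without the lane term and in a fit to the 6 libraries alone. With a replicate block 846 were higher and 788 lower. Same-numbered libraries of AMB and its control did not deviate together (r = -0.274, -0.512 and -0.285 across genes). These deviations were not corrected for lane, which differed between AMB replicate 2 and control replicate 2. They therefore cannot settle whether the numbers pair the cultures. Within lane 1 alone 359 were higher and 290 lower, and within lane 2 alone 400 and 164, with fewer libraries in each. Against all 6 untreated libraries 701 were higher and 619 lower, and against the other untreated group 918 and 1010. Leaving out 1 library gave 554 to 989 higher and 421 to 968 lower, the smallest counts without control replicate 1. That library is the only lane 1 library of the control for AMB. Without it the lane term rests on the AMB and AMB-LF libraries, and the part of lane in these smaller counts was not tested.

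The direction of genes named here turned only with the other untreated group as control, and the cause was not tested. Among genes of ribosome production and translation the log2 fold changes were then 0.38 (NSR1), 0.15 (DHR2), 0.28 (ROK1), 0.36 (NSA2), 0.32 (LCP5), 0.084 (RRP8), 0.37 (RPA190), 0.26 (RPC17), 0.33 (TRM11), 0.36 (YEF3), 0.53 (RRN3), 0.61 (TOD6) and 0.21 (IFH1). In nucleotide synthesis they were 0.38 (AAH1), 0.43 (URA7), 0.13 (URA1) and -0.0082 (ADE16), and elsewhere 0.0207 (ERG25), 0.11 (TAT1), 0.18 (ATC1), 0.63 (GFD2), 0.59 (STE2), -0.14 (HXK1), -0.15 (HSF1), -0.18 (ATG8), 0.18 (CYC1), 0.0058 (RAS1) and 0.52 (RKI1). Low-count genes such as EFM3 and DAL80 are limited most by depth.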

Other observations

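Some genes of groups not described above also changed in the comparison of AMB with the control for AMB, where 18.7% of all tested genes were called higher and 18.4% lower. Of 18 tested genes for biotin and NAD synthesis 7 rose and 4 fell by edgeR's test (median -0.01), and 4 and 2 against the other untreated group. With a replicate block 7 rose and 0 fell, and without control replicate 1 5 rose and 0 fell. The biotin permease VHT1 rose most (239, 258 and 248 CPM with AMB, against 111, 120.0 and 123 CPM without it, log2 fold change 1.11 ± 0.09). Respiratory chain and ATP synthase genes rose in 12 of 40 cases and fell in 2, in 8 and 1 against the other untreated group, in 6 and 0 without control replicate 1, and in 0 and 0 within lane 1. CYC7 and COX5B, the forms of cytochrome c and of a cytochrome oxidase subunit that are made with little oxygen, led them (0.86 ± 0.14 and 0.75 ± 0.11), and CYC1, the main form of cytochrome c, fell (-0.36 ± 0.12). Peroxisome and fatty acid oxidation genes rose in 11 of 36, and the acyl-CoA oxidase POX1 was the gene that fell (-0.61 ± 0.17). Compared with the other untreated group 6 rose and 5 fell, and 7 and 0 without control replicate 1.

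Of 32 genes of Ras, protein kinase A and TOR signalling 10 rose and 2 fell (median 0.09), against 3 and 0 without control replicate 1. With the other untreated group as control 5 rose and 4 fell (median 0.03). YAK1, a kinase that opposes growth, and NPR1, a kinase that keeps nitrogen permeases at the membrane, led the increases (0.87 ± 0.11 and 0.75 ± 0.07), and RAS1 was lower (-0.58 ± 0.14). In the pentose phosphate pathway 2 of 11 genes rose and 3 fell (1 and 4 against the other untreated group). SOL4, a 6-phosphogluconolactonase, rose by 1.05 ± 0.12 and RKI1, ribose-5-phosphate isomerase, fell (-0.88 ± 0.23). GPP1, glycerol-3-phosphatase, had 910.1, 873 and 835 CPM with AMB, against 1946, 1925 and 1602 CPM without it (log2 fold change -1.07 ± 0.12). Phosphate starvation genes rose in 5 of 19 (1 without control replicate 1), and in 12 against the other untreated group, where the phosphate permease PHO84 was at 1.01, against 0.28 with the labelled control (edgeR adjusted p = 0.27). Genes outside any list with large increases included FMP23 (2.06 ± 0.18), the protein kinase RCK1 (1.94 ± 0.14) and PKP2, a kinase of pyruvate dehydrogenase (1.67 ± 0.08), which were chosen after their values were seen.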
